A study of Mus musculus with 46 samples.

Results

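The 44 collagen alpha chain genes were taken by name: every protein-coding gene whose symbol in the GENCODE M21 annotation is Col, a number, a and a number, and that was present in both count tables, which together share 56854 genes. The naming rule used no measured value, although it was chosen with earlier results of these data known. By the type of assembly their chains form, 11 genes belonged to the fibrillar class, 6 to the basement membrane class (type IV), 9 to the FACIT class (fibril-associated collagens with interrupted triple helices), 6 to the beaded filament class (type VI), 3 to the short-chain network class, 2 to the multiplexins, 4 to the transmembrane collagens, and 3 to a remainder of anchoring fibril and other collagens.

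Collagens are the main structural proteins of the extracellular matrix. Each molecule is a triple helix of alpha chains, which are encoded by separate genes, and chains of more than one gene often have to meet in one molecule, as the type I chains of Col1a1 and Col1a2 do. Fibrillar collagens give connective tissue its tensile strength, type IV collagens form the sheet under epithelia and around vessels and muscle fibres, FACIT collagens decorate fibrils, and type VI collagens form beaded filaments around cells. Synovial sarcoma is a tumour of soft tissue that can hold mesenchymal spindle cells and epithelial glands.

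RNA was sequenced from 46 whole tumours of mice, 1 library per tumour. The question of the study was what loss of a subunit of a BAF-family chromatin remodelling complex changes in synovial sarcoma. All mice carried a conditional allele at Rosa26, either hSS2, which expresses the human fusion SS18::SSX2, or hSS1, which expresses SS18::SSX1, and all tumours were induced by injecting TATCre, a cell-permeable Cre protein, into a limb of young mice, so that the control groups share the fusion and the Cre injection with the floxed groups. The groups were hSS2 control (13 tumours, no floxed subunit), hSS2 Pbrm1-fl, hSS2 Arid1a-fl and hSS2 Arid1b-fl (8 tumours each, homozygous floxed Pbrm1, Arid1a or Arid1b per the study's methods), hSS1 control (5 tumours) and hSS1 Pbrm1-fl (4 tumours). The Pbrm1 protein belongs to the PBAF form of the complex, whereas the canonical BAF form holds either Arid1a or Arid1b. The pieces were fresh-frozen whole tumour, so that tumour, vessel, fibroblast, immune and host muscle cells contribute, and in bulk RNA fewer cells of a type cannot be told apart from less RNA per cell.

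The libraries held 10137668 to 21294657 counts, and collagen genes took 0.406% to 2.27% of them. Levels are given as CPM (counts scaled to one common total per library) and, between genes, as CPM per kb of exon. Pbrm1 stood at 94.1 to 134 CPM in hSS2 Pbrm1-fl and 180 to 324 CPM in hSS2 control tumours, and at 98.2 to 253 CPM against 278 to 356 CPM in hSS1. Arid1a stood at 239 to 287 CPM in hSS2 Arid1a-fl tumours, and the library labelled hSS2 control replicate 9 was at 254 CPM, which goes against its label, while the Arid1b ranges of hSS2 Arid1b-fl (110 to 348 CPM) and hSS2 control (230 to 678 CPM) overlapped. None of 7 synovial sarcoma markers had a group median under 1 CPM. Summed skeletal muscle markers ran from 22.9 to 83354 CPM in hSS2 control tumours and were at most 4430 CPM in hSS1, and epidermal markers were near 0 (5 or 6 of 6 under 1 CPM at the median of every group). The numbers of the mice in the labels, divided at 1000 and 2000, went with the floxed gene, so each hSS2 result was also computed with own-range control tumours, those numbered like the floxed group (5 for Arid1a-fl, all under 1000, and 4 each for Arid1b-fl, from 1000 to under 2000, and Pbrm1-fl, 2000 and over). The 5 for Arid1a-fl include hSS2 control replicate 9.

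The first upstream sequences shown are those of Col4a5 and Col4a6, neighbours on chromosome X that are transcribed away from each other from starts 1309 bases apart, because Col4a6 passed a threshold in 2 comparisons and the type IV chains of both genes join in one molecule. The last is that of Col25a1, a transmembrane collagen gene that passed in another 2. They come from the RefSeq promoter table for GRCm38.p6, up to 250 bases before the start of each gene on its own strand, less any base inside an annotated exon, and the RefSeq start of Col25a1 lies inside its GENCODE M21 gene. The searched motifs were GGGCGG (the core of a GC box), CCAAT and TATAAA, on both strands, and capitals mark the matches, which read CCGCCC where GGGCGG lies on the other strand. Col4a5 is at chrX:141475169-141475384 (+), Col4a6 at chrX:141474077-141474326 (-) and Col25a1 at chr3:130180595-130180844 (+).
Col4a5: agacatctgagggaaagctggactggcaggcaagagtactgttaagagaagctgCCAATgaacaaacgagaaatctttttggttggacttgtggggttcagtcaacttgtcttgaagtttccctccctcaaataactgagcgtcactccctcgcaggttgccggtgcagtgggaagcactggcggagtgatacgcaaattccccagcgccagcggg
Col4a6: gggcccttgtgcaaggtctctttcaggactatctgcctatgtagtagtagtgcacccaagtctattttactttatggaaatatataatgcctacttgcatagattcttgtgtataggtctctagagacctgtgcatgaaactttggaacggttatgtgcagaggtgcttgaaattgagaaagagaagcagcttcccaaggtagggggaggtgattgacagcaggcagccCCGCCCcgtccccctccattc
Col25a1: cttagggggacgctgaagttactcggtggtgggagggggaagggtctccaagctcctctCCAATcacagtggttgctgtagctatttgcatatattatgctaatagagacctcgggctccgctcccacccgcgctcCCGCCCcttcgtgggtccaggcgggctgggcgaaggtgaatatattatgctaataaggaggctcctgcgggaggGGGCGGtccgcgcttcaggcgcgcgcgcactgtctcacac
The Col4a5 window held 1 CCAAT, the Col4a6 window 1 GGGCGG and the Col25a1 window 2 GGGCGG and 1 CCAAT, and none held TATAAA. Over all 32851 promoter windows of the table (300 bases each), 35.7% held GGGCGG, 37.4% CCAAT and 13.6% TATAAA. Of the 38 windows that matched 35 of the 44 collagen genes, 23 held GGGCGG, 13 CCAAT and 5 TATAAA.

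Per kb of exon, the type I chain Col1a1 and the type III chain led the transcripts, followed by the type IV chains that make up most basement membranes. Col1a1, the major chain of type I collagen, had a median of 383 CPM per kb over the 46 tumours, with a lowest value of 6.08 and a highest of 1842. Col3a1, the type III chain found beside type I in soft tissue, followed at 118 CPM per kb, and Col1a2, which supplies the second type I chain, was far lower at 15.1 CPM per kb. The longest transcript as the length put Col1a2 at 35.1 CPM per kb, still below the 424 of Col1a1. Col2a1, the fibrillar chain of cartilage, was at 81.4 CPM per kb, ahead of the type V chains Col5a1 (36.1) and Col5a2 (27.9), which sit in the core of type I fibrils. With the longest transcript as the length, Col2a1 (147 CPM per kb) stood above the type IV chains Col4a2 (108) and Col4a1 (104).

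Outside the fibrillar class, the leading genes of each class were few. Col4a2 (105 CPM per kb) and Col4a1 (92.4) encode the common chains of basement membranes, and Col4a5 (30.4) followed in that class, while Col4a6, its partner in some epithelia and smooth muscle, had a median of 1.14 CPM per kb and spanned 0.00778 to 63.0. Among FACIT genes Col16a1 (48.2 CPM per kb) and Col12a1 (8.74) led, and among type VI genes Col6a2 (36.1, or 61.2 with the longest transcript) and Col6a1 (25.5). Col18a1 (17.9 CPM per kb), whose chain contains endostatin, and Col15a1 (7.71) are the multiplexins, and Col8a2 (5.06) and Col8a1 (4.61) form short-chain networks. Col23a1 (45.4 CPM per kb) was well above Col13a1 (1.59) among the transmembrane collagens. Col7a1, the anchoring fibril chain of skin, was at 0.287 CPM per kb beside 0.234 for Col28a1. The ranges of all neighbours in this order overlapped over the 46 tumours.

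**Figure D1:**
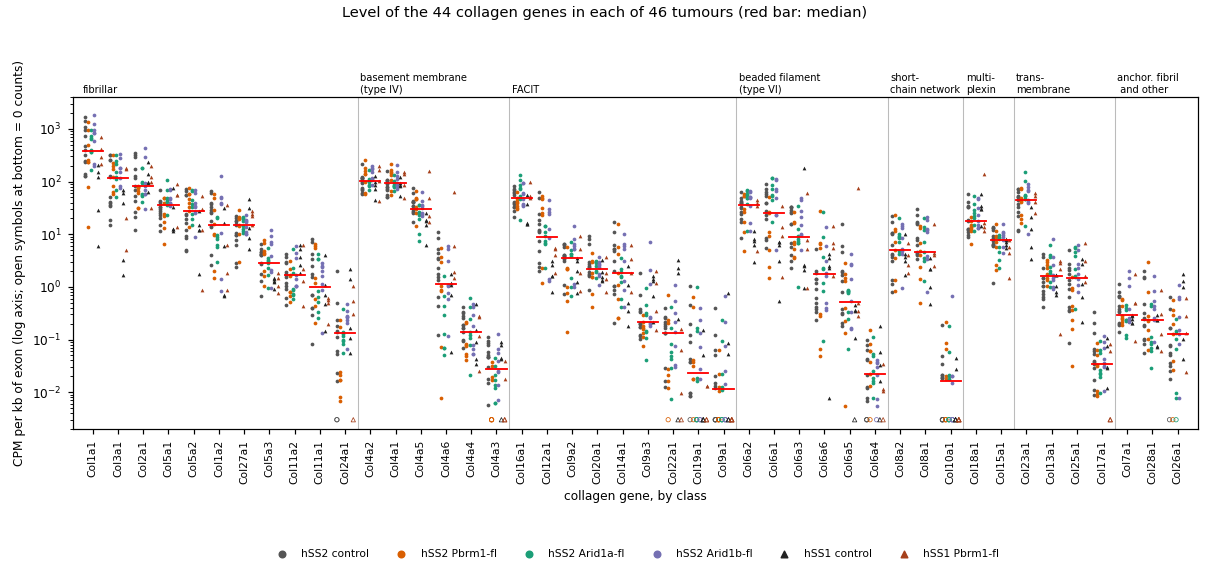
Level of each of the 44 collagen genes in each of 46 tumours, in CPM per kb of exon on a log axis, with genes ordered by median within class, points coloured by group, and red bars at the median of all 46. Col1a1 (median 383) and Col3a1 (118) sit highest, and Col4a6 and Col6a6 spread far more widely (0.00778 to 63.0 for Col4a6) than Col4a1 (49.1 to 219).

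At the other end, several genes with narrow tissue use were close to undetected. Col10a1, the chain of hypertrophic cartilage, exceeded 3 counts in 6 of the 46 libraries, with at most 33 counts. Col4a3, a chain of glomerular basement membrane, reached at most 20 counts, Col6a4 at most 17, and Col17a1, the hemidesmosome collagen of skin, at most 38. No member was at 3 counts or fewer in every library. The low-count filter left 39 members to test in hSS2 (without Col4a3, Col9a1, Col6a4, Col10a1 and Col17a1), 38 in hSS1 (also without Col19a1) and 43 in the fit of all 46 libraries (without Col10a1).

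The collagen genes varied far more between tumours of one genotype than most genes did. The SD of log2 CPM within the hSS2 groups had a median of 1.22 over the 39 tested members, beside 0.464 over all 20083 tested genes. Col6a6 (2.22), Col4a6 (2.01) and Col6a5 (1.95), a pair of minor type VI chains and the type IV alpha 6 chain, were the widest. The tightest were the type IV chains Col4a1 (0.503), Col4a2 (0.534) and Col4a5 (0.625). Differences between genotype groups are set against this spread in the comparisons.

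Summed by class, fibrillar transcripts had the largest median share of the collagen message in each of the 6 groups, from 50.3% of the summed per-kb level in hSS1 control to 65.9% in hSS2 Arid1b-fl tumours, and overlapped widely between genotypes. The share was as low as 32.7% in a single tumour, hSS2 Pbrm1-fl replicate 8. The summed fibrillar level had a median of 828 CPM per kb in hSS2 control tumours, with a range of 219 to 2178. In the floxed hSS2 groups the medians were 539 (range 185 to 1970) with Pbrm1-fl, 968 (359 to 1376) with Arid1a-fl and 1291 (470 to 2436) with Arid1b-fl. All 3 floxed ranges overlapped that of the control group. In hSS1 the fibrillar sum was 271 to 452 CPM per kb in the 5 control tumours and 456 to 1038 in the 4 Pbrm1-fl tumours, groups that did not overlap but touched, since the neighbouring tumours stood at 452 and 456.

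In hSS2 the basement membrane class was steadier. Its sum had a median of 238 CPM per kb in hSS2 control (range 144 to 410) and 341 with Pbrm1-fl (129 to 504). With Arid1a-fl the median was 221 (162 to 321) and with Arid1b-fl 276 (198 to 422). In hSS1 the medians were 203 in control (118 to 256) and 282 in Pbrm1-fl tumours (116 to 573). Type IV genes thereby took a median share of 25.6% of the summed per-kb collagen level in hSS2 Pbrm1-fl, 18.6% in hSS2 control and 13.8% in hSS2 Arid1a-fl tumours. Type VI sums had medians of 83, 59.6, 124 and 129 CPM per kb in hSS2 (control, then Pbrm1-fl, Arid1a-fl, Arid1b-fl), with wide overlap. In hSS1 the type VI medians were 20.7 in control (range 4.41 to 198) and 85.6 in Pbrm1-fl tumours (50.5 to 142). Single genes in single tumours carried much of this on both sides. Col6a3 stood at 2151 CPM in hSS1 control replicate 3, against 11.3 to 31.4 CPM in the other 4 control tumours. In hSS1 Pbrm1-fl replicate 3, Col6a5 gave 77.2 of the 98.3 CPM per kb.

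The smaller classes showed the same overlap. FACIT sums had medians of 78.9, 77.7, 88.5 and 98.9 CPM per kb in the 4 hSS2 groups and 29 and 67.2 in hSS1 control and hSS1 Pbrm1-fl. The transmembrane sums, mostly Col23a1, had medians of 52.6, 45.2, 57 and 61.8 CPM per kb in hSS2 and 14.6 and 54.6 in hSS1. Multiplexin sums ran from a median of 19 in hSS1 Pbrm1-fl to 38.5 CPM per kb in hSS1 control tumours, and short-chain network sums from 5.91 in hSS1 control to 20.3 in hSS2 Arid1b-fl. No test was run on the class sums. The hSS2 and hSS1 libraries came as separate tables, so that a difference in level between the backgrounds cannot be told apart from a difference between the sequencing runs.

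**Figure D2:**
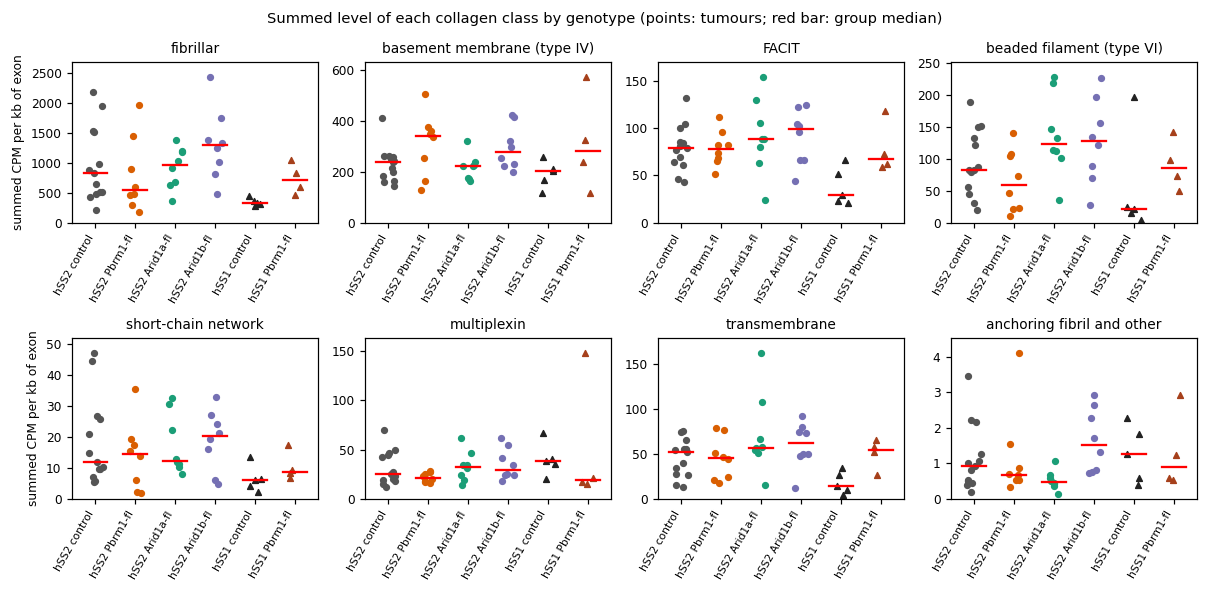
Summed CPM per kb of exon of each collagen class in every tumour, 1 panel per class, with the 6 genotype groups along the x axis, 1 point per tumour and red bars at the group medians. The hSS2 groups overlap in every panel, and hSS1 control tumours (median 333) lie just below hSS1 Pbrm1-fl tumours (median 711) in the fibrillar panel.

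Disruption of Pbrm1 in hSS2 tumours left no collagen gene past the threshold. Fold changes here and in the following comparisons are from edgeR's quasi-likelihood test with Benjamini-Hochberg adjustment over all genes tested, with adjusted p under 0.05 as the call. None of 39 tested members was called, beside 7.35% of all genes, while DESeq2 called 2 (Col24a1 and Col4a3), beside 8.44% of all genes, and 8 members (20.5%) had an unadjusted p under 0.05 in edgeR, beside 22.4% of all genes. The members' log2 fold changes had a median of -0.21 (all genes -0.0042), with 14 above 0 and 25 below, and with own-range control tumours that median was -0.07.

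The nearest to a call in each direction were a type IV and a type VI chain above 0, and a minor fibrillar and a transmembrane chain below. Col4a1 stood at 376 to 1162 CPM in hSS2 control (median 599) and 423 to 1634 CPM in Pbrm1-fl tumours (median 1036), so that 6 of 8 lay above the control median within overlapping ranges. The log2 fold change from edgeR was 0.58 (95% interval 0.16 to 1.01, SE 0.22, adjusted p 0.0949), and Col4a1 passed the threshold without hSS2 control replicate 10 or without Pbrm1-fl replicate 3. Col6a6, a type VI chain, reached 2.19 on the log2 scale (SE 0.85, adjusted p 0.112), with 4 of 8 tumours above every control tumour and 2 below every one, and was 1.19 without Pbrm1-fl replicate 5 (255 CPM) and 3.45 with own-range control tumours (adjusted p 0.231). Col24a1, a minor fibrillar chain, was at 0 to 15.3 CPM in control (median 0.851) and 0.0511 to 1.82 CPM in Pbrm1-fl tumours (median 0.147), which is -2.21 on the log2 scale (SE 0.86, adjusted p 0.110) and was -0.08 with own-range control tumours and -0.99 without hSS2 control replicate 11. Col25a1 was at -1.39 (SE 0.60, adjusted p 0.158), and at -0.64 with own-range control tumours.

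With Arid1a disrupted, Col4a6 was the only collagen gene called. It encodes the alpha 6 chain of type IV collagen and lies at chromosome X, 141165403 to 141474076, on the minus strand of GRCm38 (ENSMUSG00000031273), the build of all gene positions given. Its level was 0.964 to 86.7 CPM in the 13 hSS2 control tumours (median 17.9) and 0.404 to 12.9 CPM in the 8 Arid1a-fl tumours (median 1.66). All 8 Arid1a-fl tumours lay below the control median and 3 below every control tumour, but the ranges overlapped, since hSS2 control replicates 1, 3, 4, 2 and 10 were also at or under 12.9 CPM. The log2 fold change was -3.05 (SE 0.87, 95% interval -4.76 to -1.35, edgeR adjusted p 0.0477).

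That call stood close to the threshold. With own-range control tumours the log2 fold change was -3.79 (edgeR adjusted p 0.0144), and DESeq2 gave an adjusted p of 0.00299. The own-range control tumours include the library labelled hSS2 control replicate 9. It had the highest Col4a6 level of all control tumours and an Arid1a level at that of the Arid1a-fl group. Without it the main fit gave a log2 fold change of -2.79 with an edgeR adjusted p of 0.0658, and the own-range fit was not run without it. Over all 21 tumours left out in turn, the edgeR adjusted p ran from 0.0171 to 0.117, and it was past the threshold in 6 of 21. The call was lost without any of hSS2 control replicates 4, 5, 6, 7, 9, 11, 12 and 13 or Arid1a-fl replicates 1, 2, 3, 4, 5, 7 and 8, and the fold change was negative in each.

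Col4a5, whose promoter faces that of Col4a6, was at 116 to 509 CPM in hSS2 control (median 235) and 49 to 242 CPM in Arid1a-fl tumours (median 163). Of the 8 Arid1a-fl tumours, 6 lay below the control median, 2 of them below every control tumour. Its log2 fold change was -0.78 (SE 0.27, edgeR adjusted p 0.0866), with an adjusted p of 0.0484 in DESeq2. The other type IV chains tested had log2 fold changes of at most 0.03.

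In all, 1 of 39 members (2.56%) was called in Arid1a-fl against control, beside 3.17% of all genes in either direction and 1.76% lower. DESeq2 called 3 (Col4a5, Col4a6 and Col6a5), beside 6.72% of all genes, and 10 in edgeR (25.6%) had an unadjusted p under 0.05, beside 23% of all genes. The members' median was -0.28 (all genes -0.043), with 15 above 0 and 24 below. It was -0.04 with a skeletal muscle score, the mean log2(CPM + 1) of the 10 muscle markers, as a covariate. The summed CPM of those markers, which was not the covariate, had medians of 10054 in hSS2 control (range 22.9 to 83354) and 3027 in Arid1a-fl tumours (12.8 to 22864), with none of the 10 under 1 CPM at the group median. Col4a6 had an edgeR adjusted p of 0.0496 with that covariate. Not called were Col6a6 at 2.14 (SE 0.85, adjusted p 0.131), with 6 of 8 tumours above the control median and 1.06 without Arid1a-fl replicate 8 (243 CPM), and Col5a1, a type V chain that starts fibrils, at 0.66 (SE 0.31, adjusted p 0.197), with 7 of 8 and 0.42 without the same tumour.

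In Arid1b-fl tumours most collagen fold changes lay above 0, with no member called. None of 39 was called by edgeR or by DESeq2, beside 0.0548% and 0.0673% of all genes, and 5 (12.8%) had an unadjusted p under 0.05, beside 6.22% of all genes. The members' median log2 fold change was 0.41 (all genes 0.0045), with 30 above 0 and 9 below, and it was 0.42 with own-range control tumours. Collagen genes are not independent of each other within a tumour, so these counts carry no test.

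Col9a3, a chain of the cartilage FACIT collagen type IX, had the smallest adjusted p of the Arid1b-fl comparison among the members. It was at 0.398 to 7.0 CPM in hSS2 control (median 0.771) and 0.707 to 27.4 CPM in Arid1b-fl tumours (median 1.02). The upper end rested on Arid1b-fl replicates 2 (27.4 CPM), 5 (8.04 CPM) and 8 (4.46 CPM), and the other 5 stood at 1.03 CPM or less, inside the control range. On the log2 scale the fold change was 1.97 (SE 0.60, edgeR adjusted p 0.461) and 0.79 without Arid1b-fl replicate 2, with 3.19 for own-range control tumours. For Col4a1 the value was 0.51 (SE 0.22, adjusted p 0.749), with 7 of 8 above the control median, and 0.30 without Arid1b-fl replicate 5. Among values below 0 the smallest adjusted p were those of Col20a1 (-0.50, SE 0.37, adjusted p 0.884), a FACIT collagen, and Col6a5 (-0.73, SE 0.79, adjusted p 0.929), and Col6a5 was at -0.07 without hSS2 control replicate 3. Without hSS2 control replicate 13 Col20a1 was at -0.29, and at -0.33 without hSS2 control replicate 12. The fold change of Col20a1 turned to 0.15 with own-range control tumours.

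**Figure D3:**
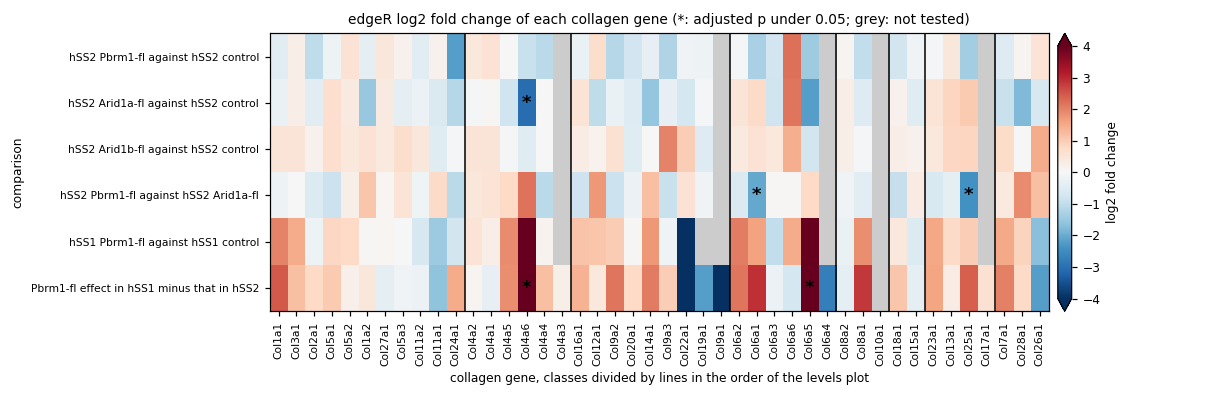
Colour map of the edgeR log2 fold change of each collagen gene (columns, in class order) in 6 comparisons (rows), clipped at 4 in either direction, with asterisks at adjusted p under 0.05 and grey where a gene was not tested. Asterisks stand at Col4a6 with Arid1a-fl, at Col6a1 and Col25a1 in Pbrm1-fl against Arid1a-fl, and at Col4a6 and Col6a5 in the difference between backgrounds.

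By class, the median log2 fold changes stayed within 1 of 0 in the hSS2 comparisons with control, and no class carried more than 1 call. With Pbrm1-fl the medians were -0.21 for 11 fibrillar genes, 0.00082 for 5 type IV, -0.29 for 8 FACIT and -0.76 for 5 type VI genes, and with Arid1a-fl they were -0.26, -0.03, -0.42 and 0.50. With Arid1b-fl they were 0.47, 0.01, 0.23 and 0.43, and 9 of 11 fibrillar genes had values above 0. The 3 tested transmembrane genes had medians of -0.04, 0.85 and 0.82 in the same order, and the anchoring fibril and other genes 0.12, -0.90 and 0.72. In hSS1 the medians for Pbrm1-fl were 0.04 for fibrillar, 0.54 for type IV, 1.02 for FACIT, 1.62 for type VI and 0.99 for transmembrane genes. With Arid1a-fl the 3 transmembrane values (0.56 to 1.05) lay above all type IV, multiplexin, short-chain network and anchoring fibril and other values.

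The abundant chains of each class were not called in any of these comparisons. Col3a1 was at 150 to 3114 CPM in hSS2 control tumours (median 496), up to 3116 CPM with Pbrm1-fl (median 1439), 490 to 3146 CPM with Arid1a-fl (median 1364) and 727 to 3313 CPM with Arid1b-fl (median 1625). The floxed medians were above that of the control group, but the highest tumours stood at one level in all 4 groups, and the log2 fold changes were 0.27, 0.28 and 0.51 (edgeR adjusted p 0.789, 0.761 and 0.924). Col1a1 ran from 820 to 11200 CPM in hSS2 control tumours and had log2 fold changes of -0.46, -0.26 and 0.51 (adjusted p 0.681, 0.804 and 0.931).

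In the order control, Pbrm1-fl, Arid1a-fl, Arid1b-fl of hSS2, Col2a1, the cartilage chain, had medians of 771, 655, 699 and 700 CPM, and Col4a2 of 644, 940, 660 and 882 CPM. Of the abundant non-fibrillar chains, Col16a1, a FACIT collagen of many connective tissues, had medians of 276, 271, 497 and 355 CPM, and Col18a1 of 126, 96.0, 168 and 144 CPM. Col23a1 had 261, 237, 305 and 318 CPM, and Col6a3 had 190, 80.5, 93.5 and 214 CPM. Col12a1, which binds fibrils in tissue under load, had 179, 432, 126 and 281 CPM within ranges of at most 976 CPM. Each of these genes had an edgeR adjusted p above 0.05 in each hSS2 comparison with control.

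The floxed groups were also set against each other, and 2 genes were lower with Pbrm1-fl than with Arid1a-fl. Col25a1 encodes a transmembrane collagen that neurons and muscle use during innervation, and lies at chromosome 3, 130131501 to 130599877 (plus strand). It was at 0.409 to 19.99 CPM in Pbrm1-fl (median 5.12) and 4.85 to 75.7 CPM in Arid1a-fl tumours (median 39.3), beside 1.12 to 66.0 CPM in hSS2 control tumours (median 14.5). All 8 Pbrm1-fl tumours lay below the Arid1a-fl median and 4 below every Arid1a-fl tumour. The log2 fold change was -2.43 (SE 0.67, 95% interval -3.74 to -1.13, edgeR adjusted p 0.0134), and the call was kept with each of the 17 tumours left out in turn (Pbrm1-fl, Arid1a-fl and hSS2 control replicate 9).

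Col6a1, one of the chains that every type VI molecule needs, lies at chromosome 10, 76708792 to 76726168 (minus strand). It was at 6.38 to 223 CPM in Pbrm1-fl (median 45.1) and 75.6 to 509 CPM in Arid1a-fl tumours (median 279), beside 24.4 to 399 CPM in hSS2 control tumours (median 168). Of the 8 Pbrm1-fl tumours, 5 were below every Arid1a-fl tumour. The log2 fold change was -2.04 (SE 0.64, 95% interval -3.30 to -0.78, edgeR adjusted p 0.0317). It lost the call without any of Pbrm1-fl replicates 3, 4, 5, 7 and 8 or Arid1a-fl replicates 6 and 8 (adjusted p 0.00785 to 0.0620 over 17).

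Neither difference passed once each floxed group was measured from control tumours of its own number range, where the log2 difference of Col25a1 was -1.17 (adjusted p 0.560) and that of Col6a1 -0.94 (adjusted p 0.641). All Pbrm1-fl mice were numbered 2000 and over and all Arid1a-fl mice under 1000. Overall counts were 2 of 39 members (5.13%) called, both lower, beside 12.3% of all genes in either direction and 5.5% lower, and 11 (28.2%) at an unadjusted p under 0.05, beside 26.8% of all genes. In the other direction Col4a5 stood at a log2 value of 0.78 (SE 0.29, adjusted p 0.0762) and Col4a6 at 2.16 (SE 0.88, adjusted p 0.103), the latter 5.21 with own-range control tumours (adjusted p 0.0503).

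In the test of any difference among the 4 hSS2 groups, 2 of 39 members (5.13%) were called, beside 11.8% of all genes, and 10 (25.6%) had an unadjusted p under 0.05, beside 28.8% of all genes. DESeq2 called 6, beside 15.1% of all genes. The edgeR calls were Col9a3 (chromosome 2, 180597790 to 180622189, edgeR adjusted p 0.00663) and Col25a1 (edgeR adjusted p 0.0415). Medians of Col9a3 in CPM were 0.771 in control, 0.619 with Pbrm1-fl, 0.849 with Arid1a-fl and 1.02 with Arid1b-fl. The medians were close to each other, and the highest tumours were Arid1b-fl replicates 2 (27.4 CPM) and 5 (8.04 CPM) and hSS2 control replicate 1 (7.0 CPM). With own-range control tumours the Col9a3 call was lost (adjusted p 0.0682), and without Arid1b-fl replicate 2 the adjusted p was 0.124. The Col25a1 call was lost without any of 11 tumours, namely Pbrm1-fl replicates 3, 4, 5, 7 and 8, Arid1a-fl replicates 2, 6, 7 and 8, and Arid1b-fl replicates 6 and 8, and its adjusted p was 0.641 with own-range control tumours. Col7a1 (adjusted p 0.0722) and Col4a6 (adjusted p 0.0782) followed, and Col4a6 passed with own-range control tumours (adjusted p 0.0492). The exons of Col9a3 overlap those of Tcfl5 on the other strand over 234 bases, and whether reads were assigned by strand was not stated.

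**Figure D4:**
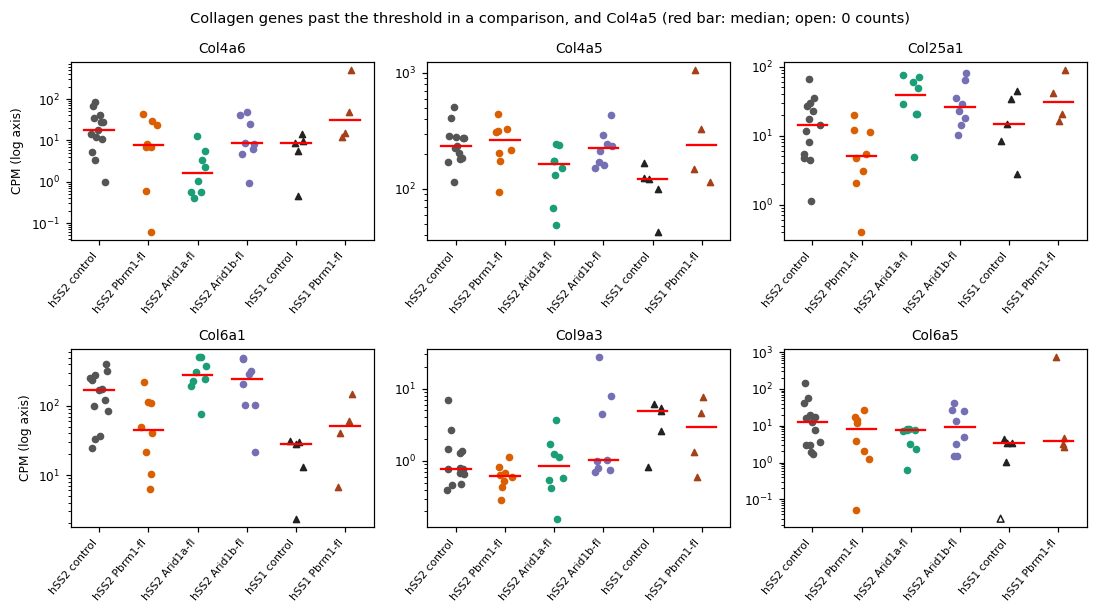
CPM on a log axis of Col4a6, Col4a5, Col25a1, Col6a1, Col9a3 and Col6a5 in every tumour of the 6 groups, 1 panel per gene, with red bars at the group medians and open symbols for 0 counts. Col4a6 is lowest in hSS2 Arid1a-fl tumours (median 1.66), and single tumours stand at 503 CPM for Col4a6 and 727 CPM for Col6a5 in hSS1 Pbrm1-fl.

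In the hSS1 background, the fold changes of most collagens with Pbrm1-fl were above 0, without a call. None of 38 members was called by edgeR, beside 0.00562% of all genes, DESeq2 called 3 (Col4a6, Col22a1 and Col6a2), beside 6.02% of all genes, and 11 (28.9%) had an unadjusted p under 0.05, beside 17.2% of all genes. The members' log2 fold changes had a median of 0.78 (all genes 0.011), with 28 above 0 and 10 below, and 0.75 against the 3 control tumours numbered 1000 to under 2000, as the Pbrm1-fl mice were. Summed fibroblast markers moved with this: 178 to 420 CPM in control and 451 to 1355 CPM in Pbrm1-fl tumours, while 3 of the 7 markers (Dpt, Pi16 and Mfap5) were under 1 CPM at both medians. Pdgfra (medians 237 and 450 CPM) and Dcn (14.9 and 120 CPM) made up most of that sum, and Cd34 went the other way (45.6 and 28.5 CPM). Their part in the collagen levels was not tested.

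Col6a2, partner of Col6a1 in type VI molecules, was at 67.6, 97.1, 53, 24.3 and 61.6 CPM in hSS1 control replicates 1 to 5 and at 326, 368, 40.3 and 287 CPM in hSS1 Pbrm1-fl replicates 1 to 4. Hence 3 of 4 Pbrm1-fl tumours lay above every control tumour and replicate 3 lay among them. For Col6a2 the log2 fold change was 2.06 (SE 0.58, edgeR adjusted p 0.162). Col1a1 was at 799, 998, 1369, 39.9 and 192 CPM in hSS1 control and 2787, 4528, 1911 and 1428 CPM in hSS1 Pbrm1-fl tumours, groups that did not overlap, and its edgeR estimate was 1.98 (SE 0.82, adjusted p 0.267).

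Col4a6 in hSS1 was at 5.53, 14.2, 8.61, 9.55 and 0.459 CPM in control replicates 1 to 5 and at 503, 15.3, 47.3 and 11.9 CPM in Pbrm1-fl replicates 1 to 4. A single tumour, Pbrm1-fl replicate 1, held over 10 times the level of any other hSS1 tumour, and it also had the highest Col4a5 level, 1060 CPM against 42.8 to 328 CPM in the other 8. The log2 fold change of Col4a6 was 4.21 (SE 1.25, edgeR adjusted p 0.172), and 1.73 without that tumour. In the opposite direction, Col22a1, a FACIT collagen of muscle-tendon junctions, was at 2.23, 20.9, 17.2, 0 and 29.8 CPM in control and 0.585, 1.45, 0 and 0.0891 CPM in Pbrm1-fl tumours. Its groups overlapped only through the control tumour at 0, the fold change on the log2 scale was -4.71 (SE 1.62, adjusted p 0.209), and Col11a1, a minor fibrillar chain, had the next smallest adjusted p among values below 0 (-1.45, SE 0.84, adjusted p 0.404), with -0.34 without hSS1 control replicate 4.

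The effect of Pbrm1-fl in hSS1 minus that in hSS2 was called for 2 of 43 members (4.65%), both higher in hSS1, beside 2.86% of all genes called in either direction and 1.7% higher, and 14 members (32.6%) had an unadjusted p under 0.05, beside 18.9% of all genes. The members' median difference was 0.78 (all genes 0.016), with 29 above 0 and 14 below. DESeq2 called 5 members, beside 4.85% of all genes. Each of the called differences rested on a single tumour. Col6a5, a minor type VI chain at chromosome 9, 105856078 to 105960643, had 727 CPM (7367 counts) in hSS1 Pbrm1-fl replicate 3, against 2.67 to 4.72 CPM in the other 3 Pbrm1-fl tumours and 0 to 4.35 CPM in hSS1 control tumours. In hSS2 it was at 1.71 to 147 CPM in control (median 12.3) and 0.0511 to 26.2 CPM in Pbrm1-fl tumours (median 7.94).

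The log2 difference of Col6a5 was 7.73 (SE 1.80, edgeR adjusted p 0.0156) and fell to 1.98 (adjusted p 0.469) without hSS1 Pbrm1-fl replicate 3. That of Col4a6 was 5.10 (SE 1.47, edgeR adjusted p 0.0470) and 2.62 (adjusted p 0.364) without hSS1 Pbrm1-fl replicate 1. The Col4a6 call was also lost without hSS2 control replicate 9 or any 1 of the 5 hSS1 control tumours, and with hSS2 tumours of the number range 2000 and over alone it was 2.79 (adjusted p 0.477). On that restriction the Col6a5 difference was 8.41 (adjusted p 0.145). On the negative side, Col22a1 stood at -4.58 (adjusted p 0.104) and Col6a4 at -2.74 (SE 1.33, adjusted p 0.250), the latter -1.69 without hSS1 control replicate 1. The comparisons of one background share their control tumours, and the hSS2 Pbrm1-fl tumours enter both this difference and the hSS2 comparison.

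Chains that assemble together did not all vary together. Over the 37 hSS2 tumours, 12 pairs of partner chains from textbook compositions were compared by Pearson's r and Spearman's rho of log2 CPM (permutation test with 100000 resamples, two-sided, Benjamini-Hochberg over the 12). Col4a1 and Col4a2, whose divergent transcripts on chromosome 8 overlap by 22 bases in GENCODE M21, had r = 0.936 (rho 0.935, adjusted permutation p 6e-05, from the smallest p that these resamples can give) and 0.929 without the 2 tumours farthest from the Col4a1 median. Within the mouse number ranges (under 1000, 1000 to under 2000, and 2000 and over) r was 0.919, 0.942 and 0.969, and it was 0.979 over the 9 hSS1 tumours. Their per-kb ratio stayed between 0.715 and 1.21 in all 46 tumours.

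Col6a1 and Col6a2, on one strand of chromosome 10 with starts 102538 bases apart, had r = 0.825 (rho 0.844, adjusted permutation p 6e-05), 0.811 without the 2 farthest tumours, and 0.874, 0.934 and 0.748 within the ranges. Their ratio was less even, with a median of 1.16 in hSS2 control, 0.442 in Pbrm1-fl, 1.5 in Arid1a-fl and 1.38 in Arid1b-fl tumours. Col6a3, the large partner chain of type VI, followed Col6a2 less closely (r = 0.451, rho 0.484, adjusted permutation p 0.00867), with r 0.331 without the 2 farthest tumours and 0.174, 0.270 and 0.726 within the ranges, so that this relation rested in part on those 2 tumours and on the range of 2000 and over.

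Col1a1 and Col1a2 had r = 0.678 (rho 0.705, adjusted permutation p 8e-05), 0.600 without the 2 farthest tumours and 0.657, 0.755 and 0.874 within the ranges. Their per-kb ratio had a median of 26.7 over all 46 tumours and ran from 4.46 in Arid1b-fl replicate 5 to 258 in Arid1b-fl replicate 2. With the longest transcript as the length the median ratio was 12.7, because the annotated exons of Col1a2 add up to more than its main transcript. The group medians in hSS2 were 23.4 in control, 21.6 in Pbrm1-fl, 53.1 in Arid1a-fl and 34.9 in Arid1b-fl tumours, with overlapping ranges. In hSS1 they were 9.22 in control (range 6.60 to 42.5) and 115 in Pbrm1-fl tumours (18.9 to 253), which also overlapped.

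Col4a5 and Col4a6 had r = 0.569 (rho 0.505, adjusted permutation p 0.000576), 0.492 without the 2 farthest tumours, and 0.646, 0.745 and 0.515 within the ranges. The other divergent type IV pair, Col4a3 and Col4a4, had r = 0.600 (rho 0.634, adjusted permutation p 0.00015) at counts near the floor of detection. Type VIII chains Col8a1 and Col8a2 (r = 0.458, rho 0.397, adjusted permutation p 0.00867) and type IX chains Col9a1 and Col9a2 (r = 0.441, rho 0.379, adjusted permutation p 0.00937) were looser. Col9a1 was also near the floor of detection, with more than 3 counts in 12 libraries of the series. Col5a1 and Col5a2 had r = 0.342 (adjusted permutation p 0.0512), Col9a2 and Col9a3 0.199 (0.282), Col11a1 and Col11a2 0.188 (0.289), and Col2a1 and Col11a1 -0.174 (0.303), none past the threshold in r. By rho, Col9a2 and Col9a3 passed (rho 0.423, adjusted permutation p 0.0169), and the other 3 did not (rho 0.316, 0.261 and -0.108). The 8 pairs that passed in r also passed in rho, with adjusted permutation p from 3e-05 to 0.0286.

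**Figure D5:**
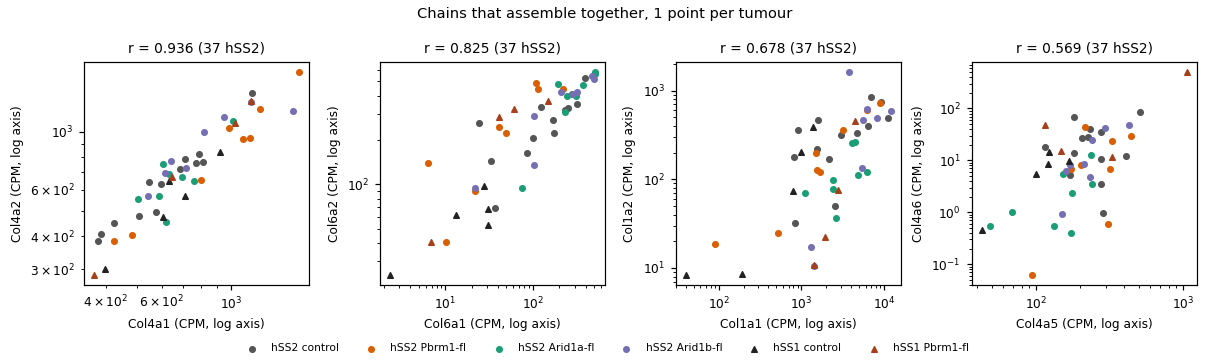
CPM of 2 partner chains per panel, on log axes, with 1 point per tumour coloured by group, for Col4a1 and Col4a2, Col6a1 and Col6a2, Col1a1 and Col1a2, and Col4a5 and Col4a6. The points lie along a line for Col4a1 and Col4a2 (r = 0.936 over the 37 hSS2 tumours) and scatter more for Col4a5 and Col4a6 (r = 0.569).

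Genes that make, process and bind collagen were read from 5 lists. Among 21 tested genes for chain modification and folding, 2 were higher and none lower with Arid1a-fl against hSS2 control, beside 1.41% of all genes higher: Plod1, a lysyl hydroxylase, by 1.01 on the log2 scale (SE 0.22, edgeR adjusted p 0.0156), and Serpinh1, the collagen chaperone HSP47, by 0.82 (SE 0.18, edgeR adjusted p 0.0200). Both passed with own-range control tumours (adjusted p 0.0402 and 0.0409). With 1 tumour left out in turn, each kept its call in 20 of 21 fits (edgeR adjusted p up to 0.0716 and 0.0819). In Pbrm1-fl against Arid1a-fl, 5 of the 21 were lower and none higher, beside 5.5% of all genes lower, led by Serpinh1 (-1.03, edgeR adjusted p 0.00137), Plod1 (-1.18, adjusted p 0.00179) and Crtap (-0.83, adjusted p 0.00702), which is part of the prolyl 3-hydroxylation complex. None of these 5 passed with own-range control tumours, where 436 of 20083 genes were called. The log2 values there were -1.03 for Serpinh1, -1.19 for Plod1 and -0.54 for Crtap. In the difference between backgrounds P4ha2, a prolyl 4-hydroxylase subunit, was called higher at 2.83 (SE 0.73, edgeR adjusted p 0.0269) and had an adjusted p of 0.192 with the restricted range. The P4ha2 call was kept in 6 of 10 fits with 1 tumour left out (edgeR adjusted p up to 0.0810).

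Of 14 genes for propeptide processing and cross-linking, 3 were lower and none higher with Pbrm1-fl against hSS2 control, beside 3.95% of all genes lower. They were Adamts3 (-2.21, edgeR adjusted p 0.0130), which removes amino-terminal propeptides, Pcolce (-1.96, adjusted p 0.0143), which speeds the removal of carboxy-terminal ones, and Loxl1 (-1.19, adjusted p 0.0214), a cross-linking enzyme. None passed with own-range control tumours, where 477 of 20083 genes were called. The log2 values there were -1.65 for Adamts3, -1.23 for Pcolce and -1.33 for Loxl1. In Pbrm1-fl against Arid1a-fl, 5 were lower and 1 higher, beside 12.3% of all genes in either direction, among them Adamts3 (-2.27, edgeR adjusted p 0.0102), Bmp1 (-0.64, adjusted p 0.0130), Pcolce2 (-2.08, adjusted p 0.0243) and, higher, Tll1 (1.25, adjusted p 0.0367), which like Bmp1 is a procollagen proteinase. None of the 6 passed with own-range control tumours. The log2 values there were -1.62 for Adamts3, -0.98 for Bmp1, -0.53 for Pcolce2 and 0.38 for Tll1. With 1 tumour left out, Tll1 kept its call in 8 of 17 fits (edgeR adjusted p up to 0.0859) and Pcolce2 in 15. Adamts3 and Bmp1 kept theirs in all 17.

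Among the other basement membrane genes, Lama1, a laminin chain, was lower with Pbrm1-fl against hSS2 control (-1.94, SE 0.53, edgeR adjusted p 0.0208). It passed with own-range control tumours (adjusted p 0.0182), and no type IV collagen gene was called in that comparison. With Arid1a-fl, Nid2, a nidogen that links laminin to type IV networks, was higher at 0.82 (SE 0.21, edgeR adjusted p 0.0347), with 0.133 for own-range control tumours. Nid2 kept its call in 17 of 21 fits with 1 tumour left out (edgeR adjusted p up to 0.118). Lama1 was lower in Pbrm1-fl against Arid1a-fl (-2.16, edgeR adjusted p 0.0102), and had 0.0588 with own-range control tumours. Of 9 tested collagen receptors, 1 was lower and 1 higher in that comparison, beside 12.3% of all genes in either direction. They were Itga1 (-1.21, edgeR adjusted p 0.00186), an integrin chain for type IV collagen, and Ddr1 (0.84, adjusted p 0.00679), a collagen receptor kinase. Neither passed with own-range control tumours (adjusted p 0.111 and 0.624), where Itga1 was at -1.19 and Ddr1 at 0.32. Of 14 tested fibril-associated proteoglycans and glycoproteins, edgeR called none in any hSS2 comparison, with 3 at an unadjusted p under 0.05 for Pbrm1-fl, 3 for Arid1a-fl, 1 for Arid1b-fl and 1 for Pbrm1-fl against Arid1a-fl. The shares of all genes at that unadjusted p were 22.4%, 23%, 6.22% and 26.8%. In Arid1b-fl and in hSS1, no gene of the 5 lists was called, beside 0.0548% and 0.00562% of all genes. At an unadjusted p under 0.05 were 1 to 4 and 0 to 4 genes of a list, beside 6.22% and 17.2% of all genes.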

How the data were processed

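RNA of 46 whole tumours was sequenced as rRNA-depleted stranded libraries. The authors aligned reads to mm10 with STAR 2.7.11 and deposited raw counts per gene from featureCounts 1.6.3, in one table per fusion background. The annotation release, strand setting and treatment of multi-mapping reads are not given in the sources used here. Depth was 10137668 to 21294657 counts per library. Every sample was grouped by its labels. The study used littermates as controls, but the labels do not tie tumours to litters, so litter is in no fit and p-values measure the spread between tumours.

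From the counts, genes were filtered with filterByExpr, scaled by TMM and tested with edgeR 4.0.16 (quasi-likelihood, robust, Benjamini-Hochberg over all genes, threshold 0.05), with the 4 hSS2 groups in one fit, the hSS1 groups in their own and all 46 libraries in another fit for the difference between backgrounds. Standard errors are from these fits, and 95% intervals use the normal quantile. DESeq2 1.42.0, RLE scaling, no filter, an adjusted p under 0.01, a skeletal muscle covariate, comparison only with control tumours of the floxed group's number range, and each tumour left out were alternatives. The scripts were tested on simulated data. CPM used plain library totals, and lengths the union of GENCODE M21 exons. Correlations used log2 CPM and permutation tests.

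Members, classes, marker and pathway lists were chosen with earlier results of these data known. Named genes were all called members, the 2 with the smallest adjusted p in each direction per comparison, the 2 highest per class, partner chains, and up to 3 called genes per list, direction and comparison. A further result from the pathway lists is not reported here. Col6a2, Col6a3 and Col6a5 levels outside these were chosen after their values were seen.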

Additional observations from a re-analysis of the deposited data

Results flagged for a closer look

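Single tumours stood apart from the rest of their group for 17 gene and group sets of 218 examined (groups of 4 to 8 tumours, log2 CPM + 0.1, gap over range above Dixon's 95% value), or 7.80%, where chance gives about 1 in 20, or 10.9 sets. CPM values follow, with the range of the other tumours of the group. No explanation was tested.

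Type VI chains gave 6 of the 17 sets. Col6a5 was at 727 in hSS1 Pbrm1-fl replicate 3 (others 2.67 to 4.72) and Col6a3 at 2151 in hSS1 control replicate 3 (11.3 to 31.4). Low values were Col6a2 at 40.3 in hSS1 Pbrm1-fl replicate 3 (287 to 368) and at 94.5 in Arid1a-fl replicate 1 (311 to 579), Col6a3 at 11.8 in Arid1a-fl replicate 7 (81.3 to 410), and Col6a6 at 0.0708 in hSS1 control replicate 4 (21.2 to 39).

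Among type IV chains, hSS1 control replicate 5 was lowest for Col4a6 at 0.459 (others 5.53 to 14.2) and for Col4a3 at 0 (0.435 to 0.897). In hSS1 Pbrm1-fl replicate 1, Col18a1 was at 989 (79.3 to 116) and Col16a1 at 672 (334 to 360), the same tumour that held 503 CPM of Col4a6. In hSS1 Pbrm1-fl replicate 3, Col13a1, a transmembrane collagen, was at 0.592 (10.1 to 14.3).

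In hSS2 Arid1b-fl, replicate 5 had Col10a1 at 2.11 (others 0 to 0.0643) and Col23a1 at 57.4 (229 to 506), replicate 2 had Col11a1 at 1.72 (11.3 to 36.1), and replicate 7 had Col24a1 at 0.503 (1.6 to 3.61). In hSS2 Arid1a-fl, Col12a1 was at 34.6 in replicate 1 (99.9 to 220) and Col24a1 at 2.91 in replicate 7 (0.415 to 1.08).

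The effect of Pbrm1-fl differed between the hSS1 and hSS2 backgrounds by the interaction term for Col6a5 (log2 difference 7.73, edgeR adjusted p 0.0156) and Col4a6 (5.10, adjusted p 0.0470). Without the tumour with the highest level these were 1.98 (adjusted p 0.469) and 2.62 (adjusted p 0.364).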

How the results depend on the processing

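The counts of called collagen genes were small and moved with the setting. DESeq2 called 2 genes with Pbrm1-fl, 3 with Arid1a-fl, 6 for any difference, 3 in hSS1 and 5 for the difference between backgrounds, beside 8.44%, 6.72%, 15.1%, 6.02% and 4.85% of all genes. The muscle covariate gave 1 with Pbrm1-fl, 4 for any difference and 6 between backgrounds. Over all genes it gave 1632 and 2647 of 20083, and 854 of 21725. An adjusted p under 0.01 left 0 with Arid1a-fl, 0 in Pbrm1-fl against Arid1a-fl, 1 for any difference and 0 between backgrounds, and no filter on low counts left 0, 1, 1 and 1. Without the filter, 243, 2299 and 2330 of all 40638 genes and 402 of 41165 were called. Control tumours of the same number range gave 2 with Arid1a-fl (Col4a6 and Col20a1), 0 in Pbrm1-fl against Arid1a-fl, 1 for any difference and 0 between backgrounds. Over all genes that setting gave 1405, 436 and 710 of 20083, and 6 of 20357. Without hSS2 control replicate 9 there were 0 with Arid1a-fl and 1 between backgrounds, beside 388 of all 19988 genes and 655 of 21670. Leaving out 1 tumour each gave 0 to 1 calls with Pbrm1-fl, 0 to 2 with Arid1a-fl, 0 with Arid1b-fl, 1 to 3 in Pbrm1-fl against Arid1a-fl, 1 to 4 for any difference, 0 in hSS1 and 1 to 3 between backgrounds, where the hSS1 tumours and hSS2 control replicate 9 were the ones left out. Of the log2 fold changes and median levels of single genes over all settings, 479 kept their direction and side of the threshold (or stayed within the spread), 14 passed newly, 37 no longer passed, 1 turned sign and 1 moved by more than the spread. The ratios were not part of this tally. Of the counts of calls and the partner correlations, 152 held, 59 counts moved, 1 correlation passed newly and 2 no longer passed. This tally judged correlations by an unadjusted permutation p under 0.05. Under that rule Col5a1 and Col5a2 counted as passing (unadjusted permutation p 0.0384), although their adjusted permutation p was 0.0512.

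Without the 2 farthest tumours, r fell to 0.181 for Col5a1 and Col5a2 and to 0.331 for Col6a2 and Col6a3, and rose to 0.393 for Col11a1 and Col11a2. The fold change of Col20a1 with Arid1b-fl turned from -0.50 to 0.15 with own-range control tumours. The cause was not tested. No paired analysis was possible because the labels do not tie tumours to litters. Depth limits Col10a1, Col4a3, Col6a4, Col9a1 and Col17a1, which were under the filter in hSS2.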
